A study of Mus musculus with 10 samples.

Results

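The 10 genes described here encode mucosal defence and acute-phase proteins: Reg1, Reg3b, Reg3g, Lcn2, Ltf, Pigr, Dmbt1, Saa3, Orm1 and Hp. They are 10 of 18193 genes measured on Affymetrix arrays in differentiating mouse embryonic stem cells, and all 10 had a probe set annotated to a single gene symbol. The list was selected from earlier results of these same arrays, so its levels are a description. Where a gene had more than 1 probe set, the brightest by mean level stands for it. Reg3b and Pigr had 2 probe sets each and the other 8 genes had 1.

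All cultures started from C57BL/6 embryonic stem cells of mouse, and each array read total RNA of a whole culture. At days 17 and 24 of differentiation there were 4 cultures each: KGF together with DCI, DCI alone, KGF alone, and an untreated control. At day 8 there were only a KGF culture and a control. KGF is keratinocyte growth factor, an epithelial mitogen also known as FGF7. DCI is not spelled out in the labels and is taken as the dexamethasone and raised cAMP of the series title, which names alveolar epithelial type II cells as the aim of the differentiation. Each condition was a single array, so no condition has a replicate.

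Mucosal epithelia limit bacterial growth with proteins that they secrete onto their surface. The Reg lectins bind bacterial cell walls or act as growth factors, lipocalin and lactoferrin withhold iron from bacteria, and the polymeric immunoglobulin receptor carries IgA into the lumen. Acute-phase proteins are released into plasma, mainly by the liver, when interleukin-6 or interleukin-1 and glucocorticoids act through STAT3, C/EBP and NF-kB factors. Several of them are also made by lung and gut epithelium.

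Levels are log2 values, so a difference of 1 is 2-fold, and levels of different probe sets are not comparable. The median over all genes and arrays was 6.67, with quartiles at 4.54 and 8.38. Day 8 has to be read with care, because the control array of that day stood apart in a spike-in control and in the Actb transcript. The 3′ minus 5′ signal difference of the dap spike-in was 4.80 there and 1.35 to 2.68 on the other 9 arrays, and that of Actb was 1.05 there and 0.46 to 0.62 on the others. At day 17 the dap difference was also higher with DCI, at 2.49 with both treatments and 2.68 with DCI, against 1.82 with KGF and 1.61 in the control. At day 24 the order was the other way, with 1.43 and 1.35 against 1.50 and 1.67. The Actb difference was 0.54 to 0.62 with DCI and 0.48 to 0.52 without it over both days, and its part in the DCI results was not tested. Of the pluripotency genes, Pou5f1 lay between 3.93 and 6.24 and Nanog between 4.48 and 6.85, while Sox2 lay between 7.39 and 8.86 and Dppa5a between 6.78 and 9.36. Nkx2-1, the factor that defines lung endoderm, lay between 4.45 and 5.00 on all arrays. Differences were tested with an additive limma fit with terms for day, KGF and DCI. Errors are standard errors (SE) of that fit. A gene passed where its p, adjusted over all 18193 genes after Benjamini and Hochberg, was under 0.05.

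The 10 genes rose with time in culture. At day 8 all 10 read low, between percentile 1.55 and 28.4 of the genes of the same array. Between day 8 and day 17 the additive limma fit called 9 of 10 higher, with Orm1 as the exception, against 21.4% of all genes called higher and 21% called lower. Between day 17 and day 24 it called 10 of 10 higher, against 14.8% of all genes called higher and 22.5% called lower. Their median difference from day 17 to day 24 was 3.26, and that of all genes was -0.01. Every day 24 array lay above every day 17 array for 9 of the 10 genes, which holds for 11% of all genes. The exception was Reg3g, whose day 17 array with both treatments (9.88) exceeded the day 24 control (9.53). Since the list was chosen with such values known, these counts describe it and are not evidence about it.

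**Figure D1:**
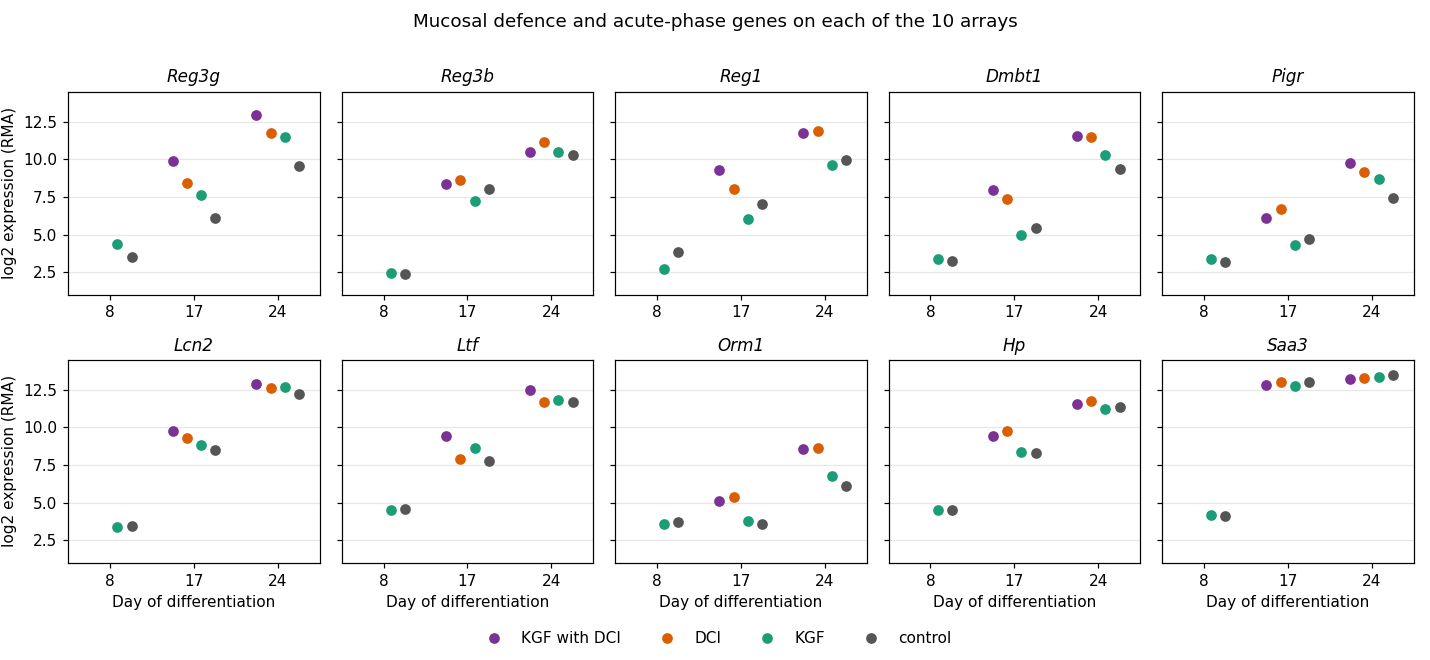
log2 expression (vertical axis) of each gene against the day of differentiation (horizontal axis), 1 point per array and no error bars because each condition is a single array. Colours mark KGF with DCI, DCI, KGF and control. Saa3 is near 13 on every array from day 17 on, while Reg3g separates all 4 treatments at days 17 and 24 and Orm1 stays near 3.6 to 3.8 without DCI until day 24.

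The Reg genes encode C-type lectin-like proteins. Reg3g and Reg3b are antibacterial lectins of gut and airway epithelium that bind bacterial cell wall components, and Reg1 is a growth factor of pancreas and stomach. In the RefSeq gene table of assembly GRCm38.p6 they are in one cluster on chromosome 6, in the order Reg3b, Reg3d, Reg3a, Reg2, Reg1 and Reg3g. The 250 bases before the transcription start are shown for the 3 members, because these genes are neighbours and Reg3g is the member that passed for KGF. Sequences are from RefSeq, build GRCm38.p6, written 5′ to 3′ on the gene's strand, and capitals mark the motif matches described after them.
Reg3g, chr6:78468875-78469124, minus strand: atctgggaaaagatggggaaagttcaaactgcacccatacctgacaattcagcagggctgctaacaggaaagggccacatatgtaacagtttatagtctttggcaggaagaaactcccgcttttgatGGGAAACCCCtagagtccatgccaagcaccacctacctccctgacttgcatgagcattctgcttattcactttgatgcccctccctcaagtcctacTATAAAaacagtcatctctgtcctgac
Reg3b, chr6:78370635-78370884, plus strand: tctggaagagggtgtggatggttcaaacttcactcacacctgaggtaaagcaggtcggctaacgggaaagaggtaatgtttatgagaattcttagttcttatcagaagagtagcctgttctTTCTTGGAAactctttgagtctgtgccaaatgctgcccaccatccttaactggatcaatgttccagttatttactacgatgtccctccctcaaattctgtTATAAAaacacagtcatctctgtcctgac
Reg1, chr6:78425733-78425982, plus strand: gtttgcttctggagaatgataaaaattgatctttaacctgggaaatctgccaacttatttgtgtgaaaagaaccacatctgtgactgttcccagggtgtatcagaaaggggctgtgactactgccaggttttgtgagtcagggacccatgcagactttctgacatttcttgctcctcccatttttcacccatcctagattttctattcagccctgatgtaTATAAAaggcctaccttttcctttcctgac

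All 3 windows hold TATAAA on the forward strand, starting 27 bases before the start site of Reg3g, 29 before that of Reg3b and 30 before that of Reg1. TATAAA occurs in 7.59% of 32841 promoter windows of the same length. The Reg3g window also holds a match to the NF-kB consensus from base -123 to -114, a motif found in 3.9% of windows on either strand. The Reg3b window has no such match and instead holds TTCNNNGAA, the STAT motif, from base -129 to -121 (7.02% of windows on either strand). The Reg3g and Reg3b windows were 68.9% identical in a global alignment and shared a run of 20 bases, whereas Reg1 matched them at 52.8% and 52.4%, within the 45.9% to 52.6% of the other 18 pairs of member windows or just above it. A match is a string of letters in a window and not a binding site.

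Reg3g was the member that rose with each treatment. At day 8 it read 4.38 with KGF and 3.54 in the control, both under the lower quartile of all genes (4.54). That control is the array that stood apart in the dap spike-in. At day 17 it read 9.88 with KGF and DCI, 8.46 with DCI, 7.61 with KGF and 6.07 in the control. The same order held at day 24, with 12.95, 11.75, 11.52 and 9.53 in those 4 cultures. Cultures with DCI lay above both cultures without it on each day, and each KGF culture lay above its partner without KGF in 5 of 5 pairs, an order that 5.06% of all genes showed. In the limma fit Reg3g rose 4.22-fold with DCI (2.08 ± 0.16, SE, adjusted p = 1.96e-05) and 2.63-fold with KGF (1.40 ± 0.15, SE, adjusted p = 0.0302). The KGF rise was 0.83 at day 8, averaged 1.48 over the 2 pairs of day 17 and averaged 1.59 over those of day 24. On the 8 arrays of days 17 and 24 alone it was 1.54 ± 0.14 (limma, adjusted p = 0.00382), in a fit that called 64 genes higher for KGF (0.352%).

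Mean levels of several gene lists moved with KGF too, although no gene of these lists passed for KGF. The 8 airway secretory markers averaged 7.88 with both treatments, 6.64 with DCI, 6.64 with KGF and 5.56 in the control at day 17, and 8.90, 7.53, 8.07 and 6.54 at day 24. At day 8 they averaged 4.44 in both cultures. Among them, Bpifa1 read 10.92 with both treatments, 7.98 with DCI, 10.38 with KGF and 6.51 in the control at day 17. The 17 general epithelium markers averaged 8.10 with KGF and 7.87 in the control at day 8, and were higher with KGF in the other 4 pairs as well, with a median KGF difference of 0.33. The 9 alveolar type II markers averaged 6.95 with both treatments, 6.13 with DCI, 6.12 with KGF and 5.96 in the control at day 17. At day 24 they averaged 7.10, 6.74, 6.92 and 6.63 in those cultures, and at day 8 5.45 with KGF and 5.53 in the control. The 28 other mucosal defence genes averaged higher with KGF in every pair, although their median KGF difference was -0.06. The part of these lists in the Reg3g result was not tested.

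The KGF call for Reg3g depended on single arrays and on the variance prior. The estimate lay between 1.24 and 1.54 under all alternatives tried. With 1 array left out, its limma adjusted p was 0.0813 to 0.201 for each of the 4 arrays of day 17 and for the control and DCI arrays of day 24. It was 0.13 without a mean trend in the variances, 0.0879 with a robust prior and 0.115 when each gene was the mean of its probe sets.

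Reg3b and Reg1 lie in the same cluster but did not pass for KGF. Reg3b read 2.45 with KGF and 2.37 in the control at day 8. At day 17 it read 8.36 with both treatments, 8.61 with DCI, 7.24 with KGF and 8.01 in the control, and at day 24 10.52, 11.14, 10.49 and 10.31. Both DCI cultures lay above both cultures without DCI on each day, at day 24 by as little as 0.02 between the KGF cultures. Reg3b rose 1.56-fold with DCI (0.64 ± 0.16, adjusted p = 0.0205). That call was lost without either DCI array of day 17, and without the control or the DCI-only array of day 24 (limma adjusted p = 0.0632 to 0.0859). Its KGF difference was -0.28 ± 0.14 (adjusted p = 0.672), with KGF higher in 2 of 5 pairs. The second Reg3b probe set, of a type whose probes can match more than a single transcript, gave 0.68 for DCI. From day 8 to day 17 that probe set gave 3.17, against 5.32 on the main probe set, and it read 4.39 with KGF and 4.14 in the control at day 8.

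Reg1 was higher with DCI on both days. It read 2.70 with KGF and 3.82 in the control at day 8. By day 17 it read 9.30 with both treatments, 8.06 with DCI, 6.06 with KGF and 7.04 in the control, and at day 24 11.72, 11.88, 9.65 and 9.96. DCI cultures were higher on each day, without overlap. The DCI rise was 4.18-fold (2.06 ± 0.30, adjusted p = 0.00101), and the KGF difference was -0.26 ± 0.27 (adjusted p = 0.861). On the arrays of days 17 and 24 alone, the KGF difference was -0.05 ± 0.28 (limma adjusted p = 0.98). KGF read 1.25 higher on top of DCI at day 17 and 0.98 lower without DCI. The combination stood 2.23 above the sum of the single differences at day 17 and 0.15 above it at day 24. The KGF by DCI interaction of the 8 later arrays was 1.19 ± 0.41 and did not pass (limma adjusted p = 1.00), with a 95% interval, not adjusted over genes, of 0.23 to 2.15. The other genes of the cluster did not pass for DCI, with differences of 0.62 ± 0.30 for Reg2 (adjusted p = 0.221), 0.23 for Reg3a (adjusted p = 0.285) and -0.04 for Reg3d (adjusted p = 0.916). Reg4, a family member expressed in gut epithelium, rose with DCI by 2.17 ± 0.21 (adjusted p = 6.17e-05).

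Dmbt1 and Pigr, which act at the epithelial surface, were higher with DCI on both days. Dmbt1 encodes a scavenger receptor cysteine-rich protein of saliva, lung and gut mucus that agglutinates bacteria and binds surfactant protein D. It read 3.35 with KGF and 3.23 in the control at day 8. The day 17 cultures read 7.96 with both treatments, 7.36 with DCI, 4.97 with KGF and 5.44 in the control, and at day 24 11.58, 11.46, 10.27 and 9.39. The lowest DCI culture of each day lay above the highest culture without DCI. Dmbt1 rose 4.21-fold with DCI (2.07 ± 0.21, adjusted p = 9.59e-05), and from day 17 to day 24 it had the largest rise of the 10 genes, 19.0-fold (4.24 ± 0.21, adjusted p = 4.10e-07). Its KGF difference was 0.25 ± 0.19 (adjusted p = 0.787).

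Pigr encodes the polymeric immunoglobulin receptor, which carries dimeric IgA and pentameric IgM across epithelium. It read 3.35 with KGF and 3.15 in the control at day 8. Day 17 gave 6.08 with both treatments, 6.69 with DCI, 4.32 with KGF and 4.70 in the control, and at day 24 9.79, 9.18, 8.72 and 7.40. DCI cultures were higher on each day, and Pigr rose 3.14-fold with DCI (1.65 ± 0.26, adjusted p = 0.00187). KGF cultures lay below their partners in both pairs of day 17, by 0.61 with DCI and 0.38 without it, and above them in both pairs of day 24, by 0.60 and 1.32. The KGF by day interaction was 1.46 ± 0.29 and did not pass over all genes (limma adjusted p = 0.944). The second Pigr probe set gave 1.34 for DCI (adjusted p over all probe sets = 0.0112) and 1.29 for the KGF by day interaction. The rise from day 8 to day 17 was 1.37 ± 0.35 (adjusted p = 0.00859), and it no longer passed without either day 8 array (limma adjusted p = 0.0578 without the control and 0.058 without KGF).

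Lcn2 and Ltf encode the iron-withholding proteins. Lipocalin 2, also called NGAL or 24p3, binds bacterial siderophores, and lactoferrin binds free iron. Both are also stored in neutrophil granules. Lcn2 read 3.40 with KGF and 3.48 in the control at day 8. On day 17 the values were 9.78 with both treatments, 9.33 with DCI, 8.83 with KGF and 8.52 in the control, and at day 24 12.89, 12.61, 12.68 and 12.25. The treatments separated cleanly at day 17, while at day 24 the DCI culture lay just below the KGF culture. Lcn2 rose 1.49-fold with DCI (0.58 ± 0.12, adjusted p = 0.00987), and its KGF difference of 0.28 ± 0.11 did not pass (adjusted p = 0.551).

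Ltf was the gene of the pair that did not pass for DCI. It read 4.50 with KGF and 4.60 in the control at day 8. By day 17 it read 9.40 with both treatments, 7.87 with DCI, 8.66 with KGF and 7.78 in the control, and at day 24 12.46, 11.67, 11.80 and 11.68. The 2 cultures with KGF were the highest of each day, while the DCI culture minus the control gave 0.09 at day 17 and -0.01 at day 24. Its DCI difference was 0.37 ± 0.21 (adjusted p = 0.293) and its KGF difference 0.64 ± 0.19 (adjusted p = 0.399). On the 8 later arrays the KGF difference was 0.83 ± 0.17, still short of the threshold (limma adjusted p = 0.121). The combination exceeded the sum of the single differences by 0.65 at day 17 and by 0.68 at day 24, and the KGF by DCI interaction of 0.66 ± 0.29 did not pass (limma adjusted p = 1.00).

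Orm1, Hp and Saa3 encode acute-phase proteins. Orm1, alpha-1-acid glycoprotein, is a plasma carrier of lipophilic compounds whose liver synthesis glucocorticoids induce. It read 3.57 with KGF and 3.73 in the control at day 8. The day 17 cultures read 5.11 with both treatments, 5.35 with DCI, 3.78 with KGF and 3.60 in the control. At day 24 the values were 8.59, 8.62, 6.78 and 6.09. Without DCI it had thus not left its day 8 level by day 17. Orm1 rose 3.61-fold with DCI (1.85 ± 0.18, adjusted p = 6.17e-05), and its difference from day 8 to day 17 was -0.12 ± 0.23 (adjusted p = 0.743). Its KGF difference was 0.09 ± 0.16 (adjusted p = 0.931). Of its close relatives, Orm2 read 5.41 with both treatments and 5.38 with DCI at day 24 but 2.39 to 2.76 on the other 8 arrays, and rose with DCI by 1.45 ± 0.41 (adjusted p = 0.0384). Orm3 lay between 3.09 and 3.89 throughout (DCI -0.04, adjusted p = 0.907). Orm genes are closely related copies, so their probes can share target RNA and these values are uncertain.

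Hp encodes haptoglobin, which binds free haemoglobin. It read 4.52 with KGF and 4.51 in the control at day 8. Day 17 gave 9.42 with both treatments, 9.75 with DCI, 8.34 with KGF and 8.30 in the control, and at day 24 11.58, 11.76, 11.22 and 11.33. The gap between cultures with and without DCI was wide at day 17 and narrow at day 24, without overlap on either day. Over both days Hp rose 1.78-fold with DCI (0.83 ± 0.15, adjusted p = 0.00417), and its KGF difference was -0.11 ± 0.14 (adjusted p = 0.884).

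Saa3 encodes the serum amyloid A made outside the liver, by macrophages, fat and epithelium. It read 4.21 with KGF and 4.12 in the control at day 8. On day 17 the values were 12.84 with both treatments, 13.02 with DCI, 12.77 with KGF and 13.02 in the control, and at day 24 13.20, 13.31, 13.38 and 13.48. The switch thus fell between day 8 and day 17 and was the largest of the 10 genes, 8.78 ± 0.09 (SE, adjusted p = 9.55e-13). Neither treatment passed for Saa3, with -0.07 ± 0.06 for DCI (adjusted p = 0.569) and -0.11 ± 0.06 for KGF (adjusted p = 0.687). From day 17 on it stood at percentile 99.6 to 99.9 of the genes of each array, near the top of the scale, and the part of that position in the result was not tested. The liver serum amyloid genes did not follow Saa3: Saa1 lay between 2.67 and 4.92 and Saa2 between 3.66 and 4.99, with DCI differences of 0.90 ± 0.14 (adjusted p = 0.00191) and 0.55 ± 0.19 (adjusted p = 0.0729).

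Saa3, chr7:46715677-46715926, minus strand: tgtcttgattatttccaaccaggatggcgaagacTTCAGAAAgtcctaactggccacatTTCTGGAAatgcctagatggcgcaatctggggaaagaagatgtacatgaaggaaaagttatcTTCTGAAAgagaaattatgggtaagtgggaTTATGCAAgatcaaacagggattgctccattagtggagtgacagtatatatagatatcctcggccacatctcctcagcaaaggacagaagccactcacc

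The Saa3 window, from RefSeq build GRCm38.p6 as above, is shown because this gene made the steepest switch. Its capitals mark 4 matches to TTNNGNAA, the C/EBP motif searched on both strands, which occurs in 36.9% of windows. Of the 7 members whose windows are in the RefSeq table used here, Lcn2, Ltf and Saa3 hold that motif. None of the 7 holds a match to the glucocorticoid receptor consensus (0.387% of windows) or to TGACGTCA, the cAMP response motif (1.55%), on either strand of these 250 bases. The table has no window for Dmbt1, Orm1 and Hp, which are only named.

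Counted together, 8 of the 10 genes passed for DCI, all of them higher, against 7.27% of all genes higher and 8.09% lower. Their median DCI difference was 1.24, and that of all genes was -0.01. The estimates ranged from -0.07 for Saa3 to 2.08 for Reg3g. On both days, 7 of 10 genes had both DCI cultures above both cultures without DCI (all but Lcn2, Ltf and Saa3), as did 11.6% of all genes. By day the counts were 8 at day 17 (24.8% of all genes) and 7 at day 24 (25% of all genes). The list was chosen with such values known, so these counts and those further below describe it and are not evidence about it. For KGF, Reg3g was the only one of the 10 that passed, and the median difference was 0.16. It was also the only one of all 18193 genes called for KGF (0.0055%). That share is thus Reg3g itself and is no background for the count. On the 8 arrays of days 17 and 24 alone, Reg3g was again the only one of the 10 that passed for KGF. That fit called 64 of 18193 genes higher (0.352%), so Reg3g was not the only gene called with KGF there. In bulk RNA of mixed cultures, more cells of a type and more RNA per cell cannot be told apart.

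**Figure D2:**
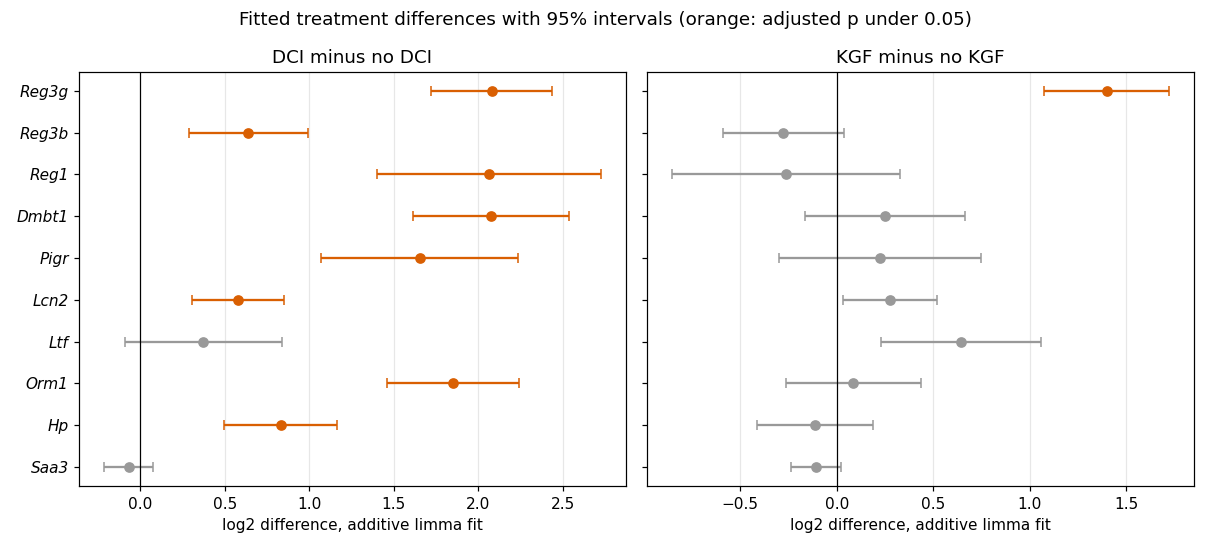
Fitted log2 differences (horizontal axis) for DCI on the left and KGF on the right, 1 gene per row. Points are estimates of the additive limma fit over 10 arrays and bars are 95% intervals not adjusted over genes, with orange where the adjusted p was under 0.05. For DCI 8 of 10 genes are orange, and for KGF Reg3g at 1.40 alone.

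A DCI difference smaller at day 24 than at day 17 was called for 2 of the 10 genes, Hp and Lcn2, in the DCI by day interaction. The estimate was above 0 for 1 gene, Orm1, and below 0 for the other 9, with a median of -0.44. A lower DCI difference at day 24 was called for 1.97% of all genes, and a higher one for 0.533%. For Hp the mean of the 2 pairs was 0.40 at day 24 and 1.27 at day 17 (interaction -0.87 ± 0.12, limma adjusted p = 0.00518). For Lcn2 it was 0.28 at day 24 and 0.87 at day 17 (-0.59 ± 0.09, limma adjusted p = 0.00917). At day 24 Lcn2 stood at percentile 99.3 to 99.6 of the genes of each array and Hp at 97.4 to 98.6. The same interaction was called lower for 10 of 13 liver and yolk sac markers (median -1.39) and for 13 of 17 macrophage markers (median -1.54). The part of either in the result was not tested. Without a mean trend in the variances neither passed (limma adjusted p = 0.0795 for Hp and 0.13 for Lcn2). The Lcn2 call was also lost without the day 17 or day 24 array with both treatments or the day 24 KGF array (0.0577 to 0.0693). Orm1 had the opposite sign, since its DCI pairs averaged 2.16 on day 24 and 1.54 on day 17, and its interaction of 0.63 ± 0.28 did not pass (adjusted p = 0.321).

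**Figure D3:**
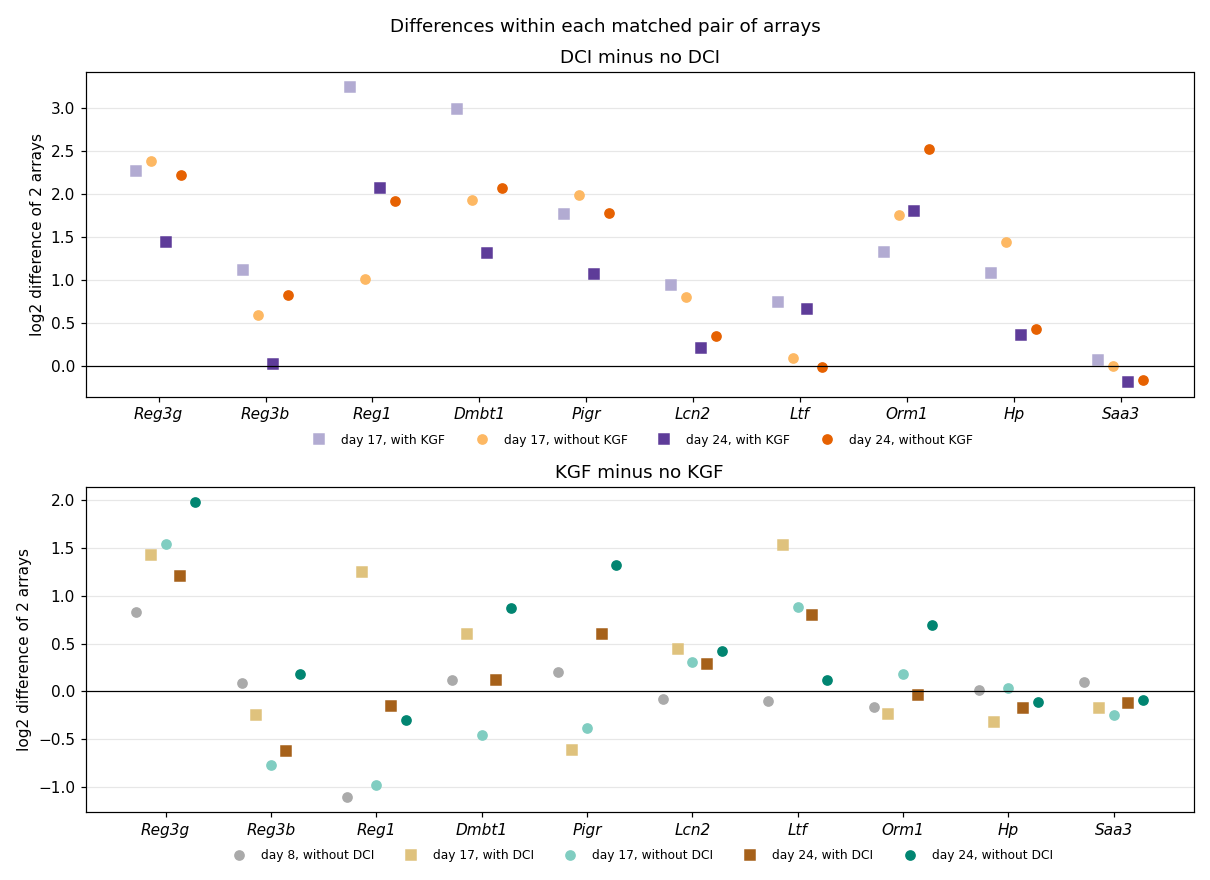
log2 difference between 2 arrays of a matched pair (vertical axis) for each gene (horizontal axis), for DCI above and for KGF below. Squares are pairs in which the other treatment was present and circles pairs without it, and colour marks the day. All 4 DCI pairs of Reg3g lie between 1.44 and 2.39 and all 5 KGF pairs between 0.83 and 1.98, whereas the KGF pairs of Pigr lie below 0 at day 17 and above 0 at day 24.

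The KGF by DCI interaction, which asks whether the combination departs from the sum of the single treatments, passed for none of the 10 genes in limma and for 0% of all genes. At an unadjusted p under 0.05 there were 1 of the 10 and 267 of all genes. The KGF by day interaction likewise passed for none (2 of the 10 and 932 of all genes at an unadjusted p under 0.05). With 3 residual degrees of freedom, the median SE of a KGF by DCI interaction was 0.20, so that the misses do not show additive action.

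Set as single arrays with no test, the cultures with both treatments stood above their same-day controls as follows: 8 of 10 genes were at least 2-fold higher at day 17 and 5 at day 24. Over all genes the shares at least 2-fold higher were 1.76% and 2.2%, and those at least 2-fold lower 1.17% and 2.56%. Reg3g was higher by 3.81 at day 17 and by 3.42 at day 24 on the log2 scale. Dmbt1 was higher 5.75-fold and 4.57-fold, and Reg1 4.80-fold and 3.40-fold. Pigr was 2.61-fold and 5.23-fold higher and Orm1 2.84-fold and 5.62-fold. Ltf, Lcn2 and Hp passed 2-fold at day 17 only, with 3.08-fold, 2.38-fold and 2.18-fold there and 1.72-fold, 1.55-fold and 1.19-fold at day 24. Reg3b differed by 0.34 and 0.20 on the log2 scale and Saa3 by -0.18 and -0.28.

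Other acute-phase genes also rose with DCI. Of 26 measured genes of that list, 18 passed as higher and 1 as lower, with a median difference of 0.73. Serpina3n, a protease inhibitor, rose by 1.79 ± 0.15 (adjusted p = 2.53e-05), and the fibrinogen chain genes Fgg, Fga and Fgb by 1.56, 1.50 and 1.49. Steap4, a metalloreductase, was the gene that fell, by 0.48. For the fibrinogen genes no rise was called from day 17 to day 24 (-0.42, -0.36 and -0.34, adjusted p = 0.0857, 0.269 and 0.102). No gene of the list passed for KGF.

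Of 28 other mucosal defence genes, 8 rose with DCI and 2 fell, with a median difference of 0.53. None passed for KGF, where the median difference was -0.06. The largest KGF estimate among them was that of the airway secretory gene Bpifa1, 3.01 ± 0.45 (limma adjusted p = 0.0842). That exceeds the 1.40 of Reg3g, so a rise with KGF was not particular to Reg3g. Zg16, a lectin of goblet cell mucus, rose by 2.56 ± 0.39 and the trefoil peptide gene Tff3 by 2.53 ± 0.13. Lyz2, a lysozyme gene abundant in macrophages, fell by 2.83 ± 0.38 (adjusted p = 0.000709). The other lysozyme gene, Lyz1, fell by 2.26 ± 0.28 (adjusted p = 0.000387). Its probe set is of a type whose probes can match more than a single transcript. From day 17 to day 24, 20 of the 28 rose and none fell.

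Among upstream cytokine genes, 2 of 12 rose with DCI and 3 fell. Il6, the main inducer of liver acute-phase genes, rose by 1.84 ± 0.11 (adjusted p = 4.18e-06) and Il33 by 0.86 ± 0.07. Tnf fell by 0.92 ± 0.13 and Il18 by 0.91 ± 0.11, while Il1b did not pass (-0.38 ± 0.23, adjusted p = 0.329). Il6 read 9.79 with both treatments, 9.38 with DCI, 7.76 with KGF and 7.85 in the control at day 24.

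Of 17 receptor and adaptor genes, 3 rose with DCI and 3 fell. Il1r1, the interleukin-1 receptor, rose by 1.14 ± 0.09 and Osmr, the oncostatin M receptor, by 0.56 ± 0.08. The bacterial sensor genes Tlr2 and Tlr4 fell by 1.21 ± 0.10 and 0.92 ± 0.13. Il22ra1, the epithelial receptor subunit for interleukin-22, which induces Reg3 genes in gut, lay between 3.68 and 4.44 on all arrays. Of 17 transcription regulators, 7 rose with DCI and none fell. Spdef, a secretory cell factor, rose by 1.61 ± 0.20 and Cebpd, a C/EBP factor of the acute-phase response, by 0.88 ± 0.13. Stat3 (0.22 ± 0.07, adjusted p = 0.08), Cebpb (0.10 ± 0.07, adjusted p = 0.43), Nfkbiz (0.23 ± 0.09, adjusted p = 0.127) and Nr3c1, the glucocorticoid receptor gene (-0.28 ± 0.10, adjusted p = 0.078), did not pass. Of 11 measured binding partners, such as receptors that take up these proteins, 2 rose and 2 fell. The haptoglobin receptor gene Cd163 rose by 1.15 ± 0.17, at low levels between 2.78 and 4.81 on all arrays. The scavenger receptor gene Stab1 fell by 2.85 ± 0.21.

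Markers of several cell types moved with DCI beside these genes. Of 17 general epithelium markers, 8 rose and 1 fell, and their mean log2 level was 8.90 to 9.77 with DCI against 8.67 to 9.41 without it at days 17 and 24. Epcam rose by 0.56 ± 0.07 and Cdh1, E-cadherin, by 0.33 ± 0.05. Gastric markers rose in 6 of 8 cases (mean level 7.46 to 9.69 against 5.74 to 7.35) and intestinal markers in 9 of 12 (7.01 to 7.66 against 5.70 to 6.37), among them Tff1 (3.75 ± 0.11) and Spink4 (3.06 ± 0.07). Macrophage markers fell in 16 of 17 cases (6.71 to 8.39 against 9.92 to 10.31), and Csf1r fell by 2.13 ± 0.10. The part of such shifts in the results for the 10 genes was not tested.

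Markers of cells that also make these proteins were mixed. Of 13 liver and yolk sac markers 2 rose, and the direction of their mean level differed by day. It was 9.74 to 9.78 with DCI against 8.56 to 8.86 without it at day 17, and 8.20 to 8.25 with DCI against 8.65 to 8.77 without it at day 24. Alb rose by 0.77 ± 0.12 with DCI but fell by 1.46 at day 24 relative to day 17, and Afp did not pass for DCI (-0.08, adjusted p = 0.9). Of 12 neutrophil markers 3 rose and 1 fell, with a mean level of 4.69 to 5.30 against 4.38 to 4.93. No value on this scale is 0. The granule genes Ngp and Mpo lay between 3.47 and 4.48 and between 3.32 and 4.72, Camp between 4.98 and 6.93, and Prtn3 between 5.82 and 7.19. Mmp9, also made by other cells, rose with DCI by 1.89 and reached 8.33. S100a8 rose by 1.58 ± 0.16 but lay between 2.76 and 5.89, and S100a9 did not pass (0.20 ± 0.25, adjusted p = 0.686). The part of these shifts in the Lcn2 and Ltf results was not tested. Of 12 pancreatic acinar markers 3 rose and 1 fell, with Cpa1 higher by 1.12 (adjusted p = 0.0135). Of 9 alveolar type II markers 1 rose and 1 fell, and Sftpc did not pass (1.20 ± 0.38, adjusted p = 0.0563). Of 8 airway secretory markers 3 rose, and of 8 pluripotency markers none passed. Of 15 glucocorticoid response genes, counted without Lcn2, 13 rose with DCI and none fell, with Fkbp5, a glucocorticoid receptor co-chaperone gene, higher by 1.75 ± 0.16. Some genes stand in 2 lists and count in each, among them Lyz2, Tff3, S100a8, Camp, Elf3, Mt2, Cebpd, Bpifa1 and Cxcl17.

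**Figure D4:**
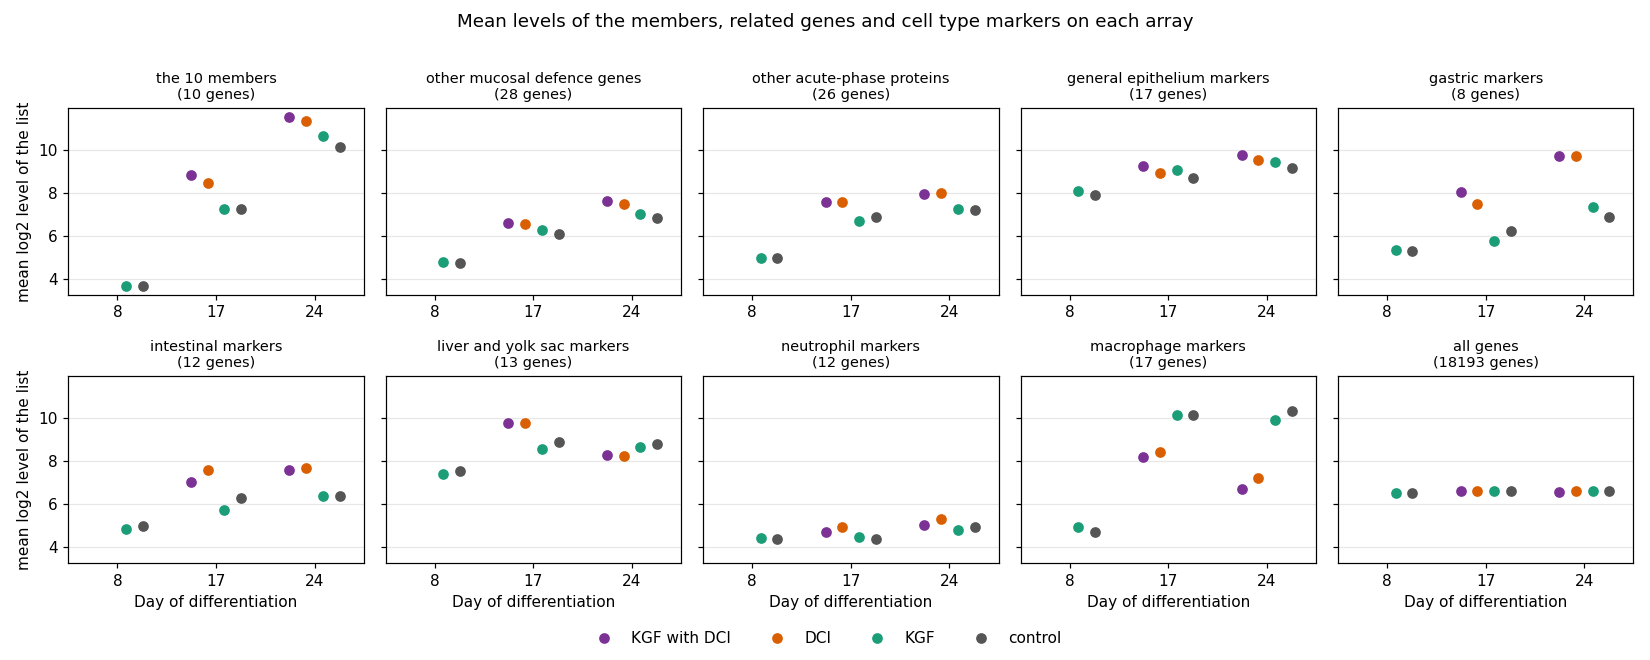
Mean log2 level of each gene list (vertical axis) on every array against the day of differentiation (horizontal axis), 1 point per array, with colours for KGF with DCI, DCI, KGF and control. The mean of the 10 genes is 3.64 to 3.66 at day 8, 7.25 to 8.81 at day 17 and 10.14 to 11.53 at day 24. Macrophage markers are lower with DCI, gastric and intestinal markers are higher with DCI, and neutrophil markers stay between 4.36 and 5.30.

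Across the 10 arrays the pairwise Pearson correlation of the 10 genes had a median of 0.94 (45 pairs, 0.53 to 0.99), and within the 8 later arrays a median of 0.92 (0.54 to 0.98). All pairs share the same arrays and the rise with time, so this is a description. Among 2132 other genes spanning at least 2 on the log2 scale, the closest profile to Lcn2 was that of Lbp, which encodes lipopolysaccharide-binding protein (r = 0.997), and to Reg1 that of Cfb, complement factor B (r = 0.99). Reg3g was nearest to the interferon-inducible exonuclease gene Isg20 (r = 0.99), Pigr to Arl14 (r = 0.988), Dmbt1 to Nr4a1 (r = 0.992) and Orm1 to Pi16 (r = 0.986). Reg3b and Hp were both nearest to the calcium-binding protein gene S100a1 (r = 0.997 and 0.996), Ltf to the water channel gene Aqp4 (r = 0.993) and Saa3 to the glutathione transferase gene Mgst1 (r = 0.999).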

How the data were processed

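Total RNA of 10 cultures was hybridised to 1 Affymetrix array each. The table the authors deposited has 45101 probe sets on a log2 scale. RMA is named in the submitters' processing notes and Bioconductor in the labels, and no version is stated in either. RMA normally quantile-normalises arrays, which would remove a shift of most genes, and nothing says whether all arrays went through it together. By GEO's platform annotation 34945 probe sets had 1 gene symbol (18193 genes), 932 several, 9160 none, and 64 were controls. A gene was represented by its brightest probe set (mean of all arrays), without a filter.

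Groups were 10 conditions with 1 array each. limma 3.58.1 (R 4.3.3) fitted day, KGF and DCI additively over 10 arrays (5 residual degrees of freedom), and each interaction over the 8 arrays of days 17 and 24 (3). eBayes used a mean trend, and a gene passed at a Benjamini-Hochberg adjusted p under 0.05. The spread holds array noise and any departure from additivity, and nothing says that cultures were repeated. The number of arrays limits the precision (median SE 0.10 for DCI). The fits were tested on simulated data. The members, the 17 gene lists (231 of 251 genes measured) and the rule for named genes were chosen with earlier results of these data known. The rule took the 10 members, the list genes with the largest DCI differences (up to 4 per pathway list past the threshold, up to 3 per marker list), genes named in any case, and the closest profiles. Some genes were named after their values were seen. These were Reg3d, as a neighbour of the Reg genes, and Steap4, as the only acute-phase gene that fell. Bpifa1, for its KGF estimate, and Sox2, Camp, Prtn3, S100a9, Mt2 and Cxcl17, as further markers, were named in the same way. Alternatives were other variance priors, filters, probe sets, normalisations, thresholds and arrays left out. Alignments used Biopython 1.88 and figures matplotlib 3.10.9.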

Additional observations from a re-analysis of the deposited data

Results flagged for a closer look

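For Hp and Lcn2 the DCI difference itself differed between the days, by the interaction test given above. The interaction (day 24 minus day 17) was -0.868 for Hp and -0.591 for Lcn2.

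For Pigr the KGF difference had opposite signs on the 2 days in every pair. The mean difference at day 24 minus that at day 17 was 1.46, and the interaction did not pass over all genes (limma adjusted p = 0.944). For Orm1 KGF read lower in both pairs with DCI (-0.24 at day 17 and -0.04 at day 24) and higher in the pairs without DCI of the same days (0.18 and 0.69). At day 8, where no culture had DCI, the KGF difference was -0.16, against that pattern. The difference was -0.576, and its interaction did not pass either (limma adjusted p = 1.00). The part of scale position and of the marker lists in the Hp and Lcn2 values was not tested.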

How the results depend on the processing

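The rise from day 17 to day 24 was called for 10 of 10 genes whichever array was left out. The day 17 against day 8 count was 8 to 9 and the DCI count 7 to 8 with an array left out. Requiring at least 2-fold in addition left 5 genes for DCI and 0 for the DCI by day interaction. The KGF count of 1 was 0 to 1 with an array left out. It was 0 without a mean trend, 0 with a robust prior and 0 when probe sets of a gene were averaged. The DCI by day count of 2 was 1 to 3 with an array left out and 0 without a mean trend. Dmbt1 (-1.26, limma adjusted p = 0.0237, without the day 17 control) and Reg3g (-0.80, limma adjusted p = 0.0233, without the day 24 control) passed that interaction in a single such fit each. Over all genes the DCI by day calls were 456, and 143 to 454 with an array left out, and the DCI calls 2793, and 1638 to 2834. The KGF calls over all genes were 1, and 0 to 65 with an array left out. Without a mean trend 138 DCI by day calls were made, and with 2-fold in addition there were 230 of them and 432 DCI calls. No called difference of the 10 genes changed sign under any alternative. The filter that removed the lowest 40% of genes removed Orm1. No paired analysis was possible because each condition is a single array and the labels carry no replicate numbers to use as a block. The matched pairs given above share a day and the other treatment, which the additive fit already holds as terms.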
